A study of Mus musculus with 22 samples.

Results

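Cdk14, Cdk15, Cdk16, Cdk17 and Cdk18 are the 5 kinases that carry a PFTAIRE or PCTAIRE motif, and all 5 are among the 10516 genes whose values were deposited. Cdk15 was chosen by the readout itself, because it had one of the largest falls in translation efficiency (TE) after *Denr* knockdown, while the other members were taken for their kinship and not for their values. Every Cdk15 value in the knockdown against control contrast is therefore a description without a test, and tests are given for the 4 paralogues and, for Cdk15, only between shRNAs of the same kind.

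The data come from NIH3T3 cells, a line of mouse embryonic fibroblasts, transduced with lentiviral shRNAs. *Denr* knockdown cells carried Denr shRNA1 (3 lysates) or Denr shRNA2 (3 lysates), and control cells carried a scramble shRNA (3 lysates) or a Gfp shRNA (2 lysates). All cells were treated with cycloheximide at 100 µg/ml for 2 min before lysis. Each of the 11 lysates gave an RPF-seq library of ribosome-protected fragments and an RNA-seq library, hence 22 libraries. Per library, 10927303 to 21649878 reads (RPF-seq) and 8514080 to 20109700 reads (RNA-seq) fell on coding sequences and 5′ UTRs. Expression is given as RPKM, reads per length of the region and library size after the authors' normalization, and the log2 TE of a lysate is the difference between log2(RPKM + 0.1) of its CDS in RPF-seq and in RNA-seq. Because RPF-seq and RNA-seq were scaled separately, a TE of a given size has meaning only against other genes or other lysates. The study describes its replicates as biological, and the labels do not say whether they came from separate transductions, so p-values measure the spread between these lysates. In bulk lysates, fewer cells that express a gene and less RNA per cell cannot be told apart.

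Denr RNA was 15.5 to 44.0 RPKM in the knockdown lysates and 165 to 190 RPKM in the controls, a log2 change of -2.75 ± 0.25 (SE, n = 6 and 5, limma, adjusted p = 0.00035), and the lysates of the knockdown and control groups did not overlap. Denr RNA was lower with shRNA2 than with shRNA1, by a log2 difference of -1.18 (limma, adjusted p = 0.00197). Mcts1, which encodes the partner of DENR, had an RNA change of -0.23 (adjusted p = 0.583), and the related factor Eif2d one of -0.0036 (adjusted p = 0.991). CDS footprints of Eif2d fell by 0.20 on the log2 scale (adjusted p = 0.0616). All 9 fibroblast markers looked up were measured, and their summed RNA was 7681 to 9587 RPKM in knockdown and 7366 to 8954 RPKM in control lysates. Of 5 epithelial, 3 endothelial and 3 muscle markers 1 each was in the table, with RNA of at most 4.05 RPKM for Cdh1, 1.10 RPKM for Cdh5 and 1.55 RPKM for Des, and none of the 3 immune or 3 neural markers was in it.

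Cyclin-dependent kinases are serine/threonine kinases that need a bound partner to be active. The PCTAIRE kinases CDK16, CDK17 and CDK18 and the PFTAIRE kinases CDK14 and CDK15 form a branch named after a short motif in the helix that meets the cyclin. CDK14 with cyclin Y phosphorylates the Wnt co-receptor LRP6 at the plasma membrane, and CDK16 with cyclin Y is needed for sperm development. Less is known of CDK15. DENR, together with MCTS1, promotes recycling of small ribosomal subunits after termination and reinitiation of translation downstream of short upstream open reading frames (uORFs).

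The 21 CDS bases that encode the motif are shown because they set PFTAIRE and PCTAIRE members apart. They were read from GENCODE vM21 transcripts (GRCm38) in the sense direction of each gene, and capitals mark the second codon, which encodes phenylalanine in PFTAIRE and cysteine in PCTAIRE.
Cdk14: cctTTCacagccatcagggaa
Cdk15: cctTTCacagccatccgggaa
Cdk16: cccTGTactgctatccgggaa
Cdk17: cccTGTacagctataagagaa
Cdk18: cccTGCactgctattcgagag

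Counted from 1 at the first base shown, the Cdk14 motif differs from that of Cdk15 by the single change C16A. The motif of Cdk16 differs from it at 5 bases, and those of Cdk17 and Cdk18 at 7 bases each. In Cdk15 the motif is at chr1:59265662-59265682 on the plus strand, in exon 4 of Cdk15-202, codons 143 to 149 of 435. In Cdk14 it is at chr5:5195279-5195299 on the minus strand, in exon 5 of Cdk14-201. In Cdk16 it is at chrX:20694725-20694745 on the plus strand, in exon 6 of Cdk16-201. In Cdk17 it is at chr10:93225029-93225049 on the plus strand, in exon 7 of Cdk17-201. In Cdk18 it is at chr1:132119101-132119121 on the minus strand, in exon 6 of Cdk18-201. No stretch of 26 bases was shared between annotated transcripts of any pair of members, so a footprint of that length without mismatch cannot come from more than 1 of them.

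Cdk15 (ENSMUSG00000026023) spans chr1:59256906-59352993 on the plus strand. The lengths behind its RPKM were 1305 bases of CDS, without the stop codon, and 67 bases of 5′ UTR, those of Cdk15-202. That 5′ UTR holds 1 AUG uORF of 60 nt, stop codon included, from base 7 to base 66, and it ends 1 base before the start codon of the CDS. Of 10238 genes of the table with an annotated 5′ UTR, 50.4% had an AUG uORF of at least 9 nt on the transcript with the longest CDS, and 4.11% had one that ended within the 5′ UTR at most 10 bases before the CDS. Among the paralogues, Cdk16-202, which is not the Cdk16 isoform with the longest CDS, also has AUG uORFs that end 5 bases before its CDS. Whether the Cdk15 uORF was translated could not be judged, since the whole 5′ UTR held 4 footprint reads over all 11 RPF-seq libraries, 3 of them in knockdown and 1 in control lysates. RNA-seq gave 4 reads on the 5′ UTR of Cdk15 in knockdown and 3 in control lysates. Relative 5′ UTR translation, the log2 ratio of 5′ UTR to CDS footprint RPKM, is therefore neither tested nor given for Cdk15, whose 5′ UTR had too few reads (the minimum was 20 in each of 9 libraries).

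Cdk15 was the least expressed of the members. Its RNA in control lysates averaged 0.522 RPKM, a level under which only 64 of 10516 genes (0.609%) lay, while the median gene had 28.2 RPKM. With scramble shRNA the RNA of Cdk15 was 0.309, 0.469 and 0.284 RPKM in replicates 1, 2 and 3, and with Gfp shRNA it was 0.421 and 1.13 RPKM. Gfp shRNA replicate 2 thus stood above the other controls. With Denr shRNA1 the RNA was 0.660, 1.25 and 0.813 RPKM, and with Denr shRNA2 it was 1.40, 1.78 and 1.10 RPKM. The 6 knockdown lysates lay above the 4 other controls, and 3 of them lay above Gfp shRNA replicate 2 as well, so that the groups overlapped through that one control. The means were 1.17 ± 0.405 RPKM in knockdown (SD, n = 6) and 0.522 ± 0.346 RPKM in control lysates (SD, n = 5), a log2 change of 1.10 on log2(RPKM + 0.1), and of 1.38 without Gfp shRNA replicate 2.

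Between knockdown and control lysates, CDS footprints of Cdk15 did not follow its RNA, which restates the fall in TE that picked the gene. They were 0.815, 0.600 and 0.944 RPKM with scramble shRNA and 1.09 and 1.68 RPKM with Gfp shRNA. With Denr shRNA1 they were 0.660, 0.894 and 0.814 RPKM, and with Denr shRNA2 they were 0.997, 1.50 and 1.24 RPKM. The groups overlapped over most of their range, with the highest value in Gfp shRNA replicate 2, the control with the most Cdk15 RNA. The means were 1.02 ± 0.307 RPKM in knockdown (SD, n = 6) and 1.02 ± 0.406 RPKM in control lysates (SD, n = 5), and the log2 change was 0.02. Between shRNAs of the same kind footprints and RNA had their higher mean with the same shRNA. These means rest on 2 or 3 lysates per shRNA, and the footprint differences were not tested. Mean footprints were 0.789 RPKM with Denr shRNA1 and 1.25 RPKM with Denr shRNA2, where mean RNA was 0.906 and 1.43 RPKM. With scramble and Gfp shRNA they were 0.787 and 1.38 RPKM, where mean RNA was 0.354 and 0.773 RPKM.

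**Figure D1:**
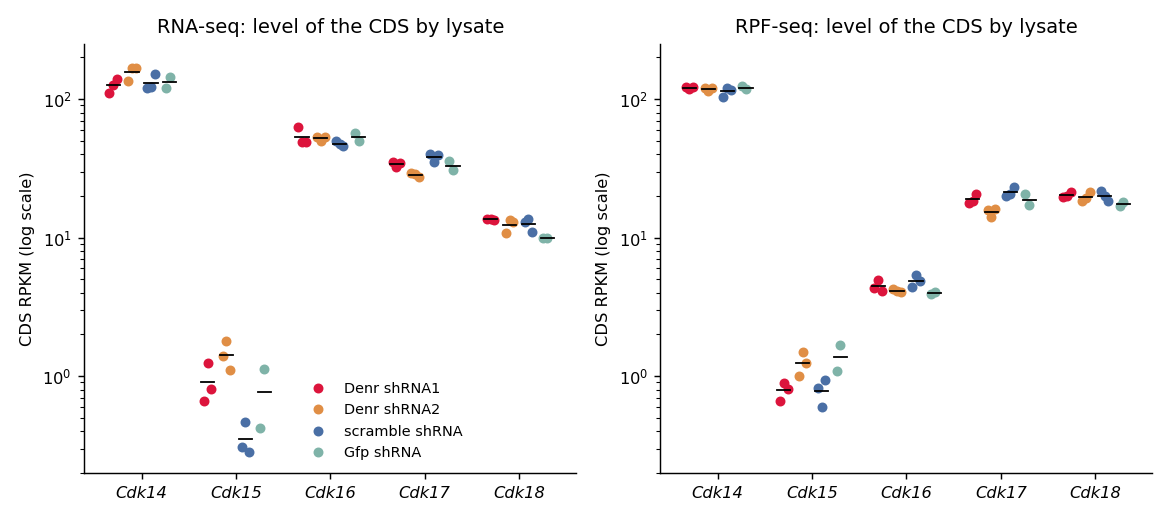
RPKM of the CDS (log scale) of the 5 kinases in RNA-seq (left) and RPF-seq (right), 1 point per lysate coloured by shRNA, with black bars for the mean of each shRNA. Cdk15 lies lowest in both assays, its RNA is higher with both Denr shRNAs than in 4 of the 5 controls, and Cdk16 lies above Cdk17 and Cdk18 in RNA but below them in footprints.

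The TE of Cdk15 was lower in all 6 knockdown lysates than in all 5 controls. A gene picked for its TE fall tends to show such a separation, and its share among all genes was not counted. The log2 TE was 1.16, 0.30 and 1.44 with scramble shRNA and 1.19 and 0.54 with Gfp shRNA. It was 0.00, -0.44 and 0.00 with Denr shRNA1 and -0.45, -0.23 and 0.17 with Denr shRNA2. The closest lysates were scramble shRNA replicate 2 and Denr shRNA2 replicate 3, which differed by less than the spread within either group. As a ratio of RPKM values without pseudocount, TE averaged 2.26 ± 0.855 (SD, n = 5) in control and 0.901 ± 0.171 (SD, n = 6) in knockdown lysates. The log2 change was -1.08, or 0.472-fold on the log2(RPKM + 0.1) scale, which is the footprint change of 0.02 less the RNA change of 1.10. By size of the fall Cdk15 ranked 4 among 10516 genes, just after Samd10 with -1.09 and before Slc41a1 with -1.05.

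These Cdk15 values rest on few reads. RNA-seq gave 12, 30 and 12 reads with Denr shRNA1, 32, 44 and 25 with Denr shRNA2, 7, 9 and 3 with scramble shRNA and 9 and 21 with Gfp shRNA. RPF-seq gave 12, 16 and 14 reads with Denr shRNA1, 18, 20 and 23 with Denr shRNA2, 12, 9 and 25 with scramble shRNA and 27 and 28 with Gfp shRNA. Summed over lysates that differ in depth, this is 155 RNA reads in knockdown and 49 in control lysates, and 103 and 101 CDS footprint reads. For scramble shRNA replicate 3, with 3 RNA reads, the exact 95% Poisson interval of the RNA level was 0.0587 to 0.831 RPKM around 0.284, and for Denr shRNA2 replicate 2, with 44 reads, it was 1.29 to 2.39 RPKM around 1.78. These intervals cover counting error only. The pseudocount matters at this level, and the log2 TE change was -1.24 with a pseudocount of 0.01, -0.51 with a pseudocount of 1 and -1.27 with limma-voom on the reads recovered from the RPKM values. It lay between -1.24 and -0.96 when each lysate was left out in turn.

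**Figure D2:**
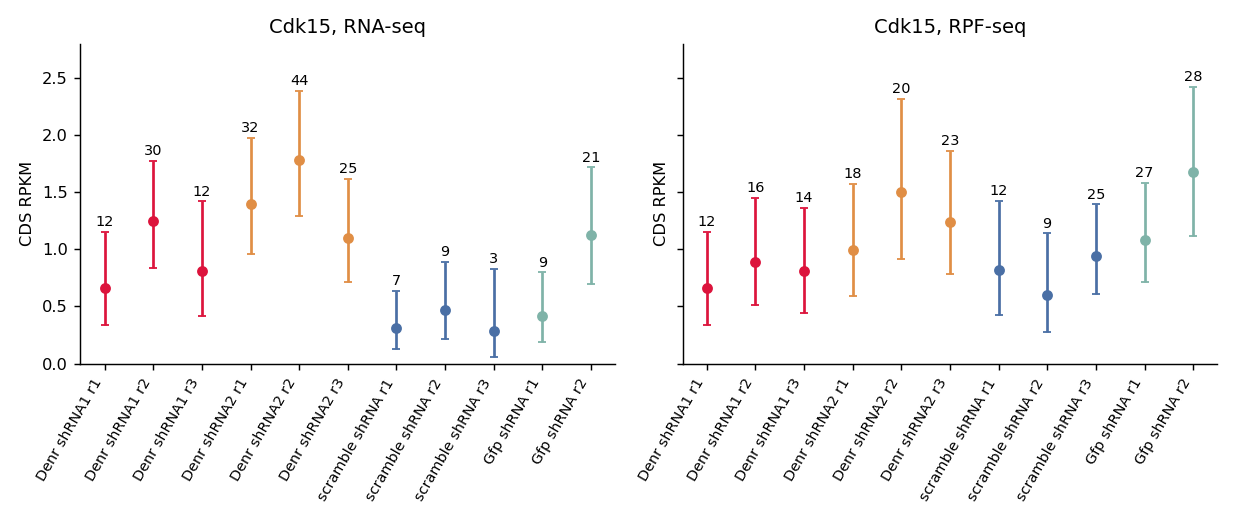
RPKM of the Cdk15 CDS in each lysate (r, replicate) in RNA-seq (left) and RPF-seq (right), with exact 95% Poisson intervals for counting error and the number of reads above each interval. RNA reads run from 3 to 44 and footprint reads from 9 to 28, and most intervals overlap those of neighbouring lysates.

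Between shRNAs of the same kind, Cdk15 can be tested. From shRNA1 to shRNA2 its log2 TE differed by -0.03 ± 0.29 (SE, n = 3 and 3, limma, adjusted p = 0.992), with a 95% interval of -0.67 to 0.62. Its RNA was higher with shRNA2 by 0.62 ± 0.34, with an interval of -0.12 to 1.36 that holds 0 (adjusted p = 0.464). From scramble to Gfp shRNA its log2 TE differed by -0.11 ± 0.33 (SE, n = 3 and 2, 95% interval -0.83 to 0.61, limma, adjusted p = 1.00) and its RNA by 0.84 ± 0.38 (adjusted p = 0.508). Without Gfp shRNA replicate 2 the latter difference was 0.22.

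The paralogues were measured with far more reads. Cdk14 (ENSMUSG00000028926, chr5:4803391-5420312, minus strand), the LRP6 kinase, was the most expressed member, with 1987 to 5149 RNA reads and 1886 to 3846 CDS footprint reads per library. Its RNA was 119, 122 and 152 RPKM with scramble, 121 and 145 RPKM with Gfp, 111, 127 and 139 RPKM with Denr shRNA1 and 136, 168 and 168 RPKM with Denr shRNA2. Its CDS footprints were 104 to 123 RPKM in control and 114 to 123 RPKM in knockdown lysates. RNA values of knockdown and control lysates overlapped, with 2 knockdown lysates above and 1 below all controls, and footprints overlapped throughout. The log2 TE change was -0.05 ± 0.13 (SE, 95% interval -0.32 to 0.22, limma, adjusted p = 0.999), and RNA and footprints changed by 0.09 and 0.04 (adjusted p = 0.736 and 0.672).

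Cdk16 (ENSMUSG00000031065, chrX:20687954-20699880, plus strand) ranked second in RNA, at 45.7 to 56.7 RPKM in control and 48.7 to 62.9 RPKM in knockdown lysates. Its CDS footprints were only 4.42, 5.38 and 4.85 RPKM with scramble, 3.94 and 4.04 RPKM with Gfp, 4.35, 4.92 and 4.12 RPKM with Denr shRNA1 and 4.24, 4.14 and 4.05 RPKM with Denr shRNA2. The TE of Cdk16 in controls, -3.44 ± 0.28 on the log2 scale (SD, n = 5) or a ratio of 0.0917 without pseudocount, was exceeded by all but 53 of 10516 genes. Knockdown lysates lay within the control range but for 1 that was below it, and the log2 TE change was -0.14 ± 0.14 (SE, 95% interval -0.45 to 0.16, adjusted p = 0.994). RNA and footprints changed by 0.08 and -0.07 (adjusted p = 0.685 and 0.712).

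Cdk17 (ENSMUSG00000020015, chr10:93160875-93267071, plus strand) had RNA of 40.1, 35.1 and 39.2 RPKM with scramble, 35.6 and 30.5 RPKM with Gfp, 35.1, 32.3 and 34.8 RPKM with Denr shRNA1 and 29.4, 28.7 and 27.4 RPKM with Denr shRNA2. Its CDS footprints were 20.1, 20.5 and 23.2 RPKM with scramble, 20.6 and 17.1 RPKM with Gfp, 17.8, 18.3 and 20.5 RPKM with Denr shRNA1 and 15.9, 14.1 and 16.0 RPKM with Denr shRNA2. In both assays the 3 shRNA2 lysates lay below all controls, and the shRNA1 lysates lay among them. The log2 changes were -0.21 ± 0.09 for RNA (adjusted p = 0.289) and -0.25 ± 0.10 for CDS footprints (adjusted p = 0.147), of like size, and -0.04 ± 0.08 for TE (95% interval -0.22 to 0.13, adjusted p = 0.999). In fits on fewer lysates the footprint change reached -0.31 with an adjusted p of 0.0603 without Gfp shRNA replicate 2, -0.30 with 0.088 without Denr shRNA1 replicate 3, -0.40 with 0.0533 for shRNA2 alone and -0.32 with 0.0655 against scramble shRNA alone. The remaining fits on fewer lysates did not pass the threshold. Leaving out single lysates gave changes from -0.31 to -0.20, the smallest of them without Denr shRNA2 replicate 2.

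Cdk18 (ENSMUSG00000026437, chr1:132112237-132139684, minus strand) had less RNA than its PCTAIRE kin, 9.87 to 13.6 RPKM in control and 10.9 to 13.7 RPKM in knockdown lysates, but CDS footprints of 16.9 to 21.8 RPKM in control and 18.3 to 21.4 RPKM in knockdown lysates. Its control TE, 0.73 ± 0.11 on the log2 scale (SD, n = 5), was above that of 86.8% of genes. The log2 TE was 0.73, 0.56 and 0.74 with scramble, 0.75 and 0.87 with Gfp, 0.52, 0.55 and 0.65 with Denr shRNA1 and 0.74, 0.52 and 0.73 with Denr shRNA2. The 3 knockdown lysates shRNA1 replicates 1 and 2 and shRNA2 replicate 2 lay below all controls, and the other 3 lay among them. The log2 TE change was -0.11 ± 0.07 (SE, 95% interval -0.27 to 0.05, adjusted p = 0.920), and RNA and footprints changed by 0.18 and 0.07 (adjusted p = 0.408 and 0.583).

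**Figure D3:**
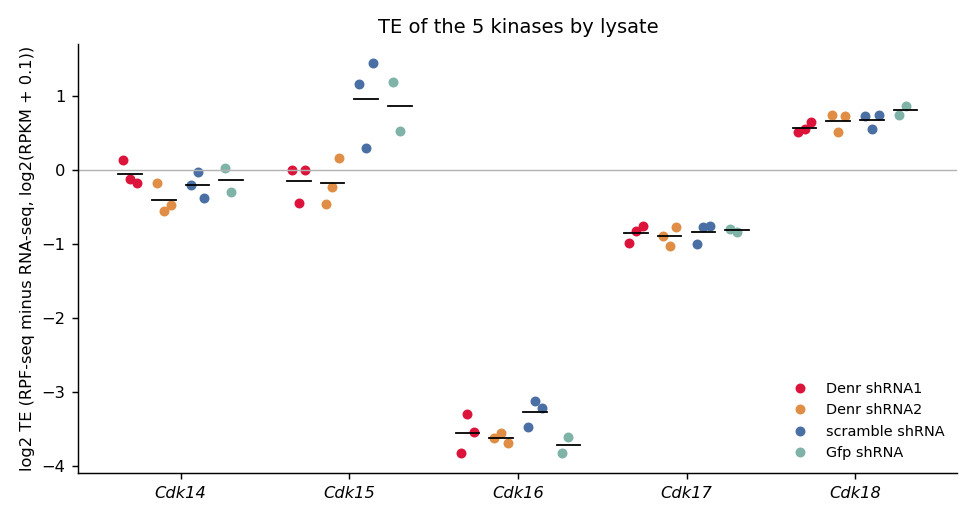
Log2 TE of the 5 kinases, 1 point per lysate coloured by shRNA, with black bars for the mean of each shRNA. The 6 knockdown lysates of Cdk15, which was picked for this fall, lie between -0.45 and 0.17, below its 5 controls at 0.30 to 1.44. Knockdown and control points of each paralogue overlap.

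Across the paralogues, 0 of 4 passed an FDR of 0.1 in limma for TE, where 0.475% of 10516 genes did, all of them with lower TE (50 genes, from 14 without Gfp shRNA replicate 2 to 72 without Denr shRNA1 replicate 1). Of the 4, 0 had an unadjusted p under 0.05 for TE, against 700 of all genes, and limma-voom also called 0 of the 4. For RNA 0 of 4 passed, against 3.55% of all genes (373 genes, from 139 without scramble shRNA replicate 2 to 734 without Gfp shRNA replicate 1). For CDS footprints 0 of 4 passed, against 10.0% (1053 genes, from 484 without scramble shRNA replicate 1 to 1946 without Gfp shRNA replicate 2). In both cases limma-voom called 0, and 1 of the 4, Cdk17, had an unadjusted p under 0.05. The log2 TE changes of the paralogues were all below 0, from -0.14 to -0.04, with a median of -0.08 beside -0.01 over all genes. Their intervals leave room for TE falls of up to 0.45 for Cdk16, 0.32 for Cdk14, 0.27 for Cdk18 and 0.22 for Cdk17.

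**Figure D4:**
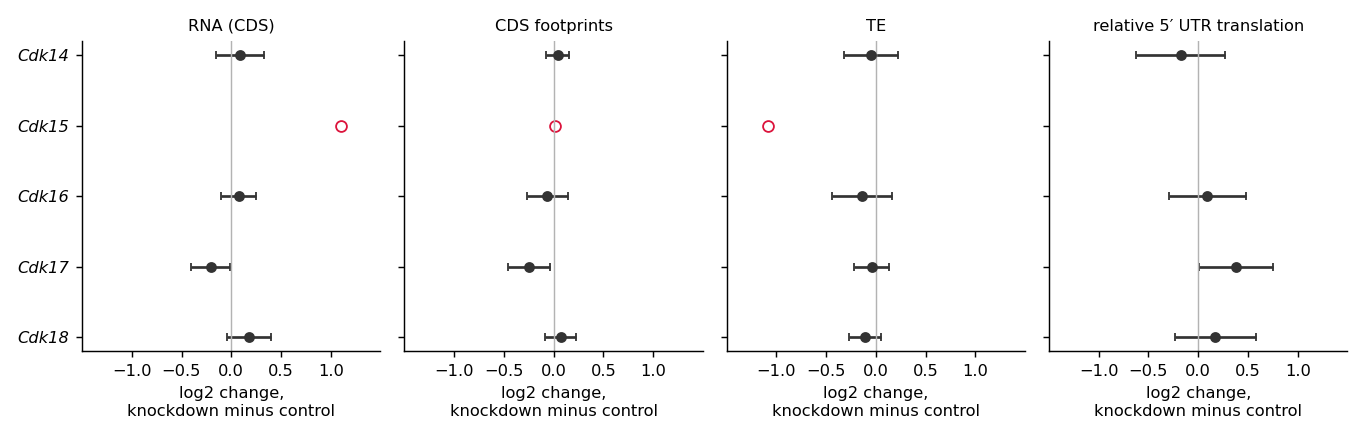
Log2 change from control (n = 5) to *Denr* knockdown (n = 6) in RNA, CDS footprints, TE and relative 5′ UTR translation. Filled points carry 95% intervals from limma, and the open circles are Cdk15, shown without an interval because its TE change selected it, at 1.10 for RNA, 0.02 for footprints and -1.08 for TE.

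Between shRNAs of the same kind no member passed the threshold for TE or RNA either, in fits without a term for the replicate number. From shRNA1 to shRNA2, 0 of the 5 members and 0% of all genes were called for TE (limma, with 392 of all genes at an unadjusted p under 0.05, and 0 by limma-voom). Cdk14 was the 1 member with an unadjusted p under 0.05, with a log2 TE difference of -0.35 ± 0.15 (adjusted p = 0.972). For RNA 0 of the 5 members passed in limma or limma-voom, where 2.06% of genes did, and Cdk14 at 0.32 ± 0.13 (adjusted p = 0.320) and Cdk17 at -0.26 ± 0.09 (adjusted p = 0.252) were the 2 members with an unadjusted p under 0.05. From scramble to Gfp shRNA, 0 of the 5 members and 0% of genes were called for TE (limma, with 233 genes at an unadjusted p under 0.05, and 0 by limma-voom). Cdk16, the 1 member with an unadjusted p under 0.05, differed by -0.44 ± 0.18 (adjusted p = 1.00). For RNA 0 of the 5 members passed with either tool, against 0.704% of genes, and 2 had an unadjusted p under 0.05, Cdk15 as above and Cdk18 at -0.33 ± 0.12 (adjusted p = 0.408).

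In the order of levels per length, RNA in controls ran from Cdk14 through Cdk16, Cdk17 and Cdk18 to Cdk15, and the ranges of neighbours over the 5 lysates did not overlap. CDS footprint levels ran from Cdk14 through Cdk17, Cdk18 and Cdk16 to Cdk15. In that order Cdk17 and Cdk18 overlapped, with Cdk17 higher in 3 of 5 control lysates, and the other neighbours did not. In control log2 TE, Cdk15 came first and Cdk18 next with overlapping ranges, Cdk15 being higher in 3 of 5 lysates, followed without overlap by Cdk14, Cdk17 and Cdk16. Over all 11 lysates Cdk18 came before Cdk15, and Cdk15 overlapped with Cdk14 as well.

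Footprints on 5′ UTRs could be followed for the 4 paralogues, which are among the 5175 genes that reached the minimum of reads. In Cdk16 the 5′ UTR was covered more densely than the CDS in every lysate. Its 5′ UTR footprints were 17.1, 17.2 and 12.8 RPKM with scramble, 19.6 and 21.2 RPKM with Gfp, 17.7, 20.2 and 14.2 RPKM with Denr shRNA1 and 18.8, 17.9 and 17.6 RPKM with Denr shRNA2, or 2.65 to 5.24 times the CDS density. On the RNA side the 5′ UTR held only 10.1 to 15.2 RPKM. In controls the relative 5′ UTR translation of Cdk16, 1.92 ± 0.41 on the log2 scale (SD, n = 5), was above that of 96.9% of the 5175 genes. The lengths behind its RPKM, 837 bases of 5′ UTR and 1585 of CDS, match neither annotated isoform, Cdk16-202 with 650 and 1383 bases or Cdk16-201 with 395 and 1488 bases. Which isoforms the density of each region covers is not stated. The isoforms named here are those of GENCODE vM21, while the paper used the cDNA set of Ensembl release 84. Cdk16-202 has 9 AUG uORFs within the 5′ UTR and 1 that overlaps the CDS, and Cdk16-201 has 3 within the 5′ UTR.

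The other paralogues had lower 5′ UTR densities than CDS densities in all lysates, but for Cdk18 in Denr shRNA1 replicate 3. Cdk18 had 5′ UTR footprints of 10.1 to 23.5 RPKM, and its log2 relative 5′ UTR translation was -0.84 to -0.09 in control and -0.85 to 0.15 in knockdown lysates. Neither of its annotated transcripts holds an upstream AUG. For no member were uORFs looked for that start with CUG, GUG or UUG, which the paper also annotated. An antisense RNA, Gm29629, overlaps the first exon of Cdk18, and whether counting used strand is not given in the sources used here. The 5′ UTR length behind the RPKM of Cdk17 was 354 bases, where Cdk17-201 has 340 bases. Cdk17, with 1 AUG uORF of 30 nt that ends 188 bases before the CDS on Cdk17-201, had a log2 relative 5′ UTR translation of -1.69 to -1.26 in control and -1.36 to -0.49 in knockdown lysates. In 4 of 6 knockdown lysates the value lay above all controls. Cdk14 had the lowest values, -3.54 to -2.88 in control and -3.98 to -3.05 in knockdown lysates. Its annotated isoforms differ in their AUG uORFs, with none on Cdk14-201 and 4 within and 1 overlapping on both Cdk14-202 and Cdk14-203. The lengths behind its RPKM, 280 and 1620 bases, match no single isoform.

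Under knockdown, relative 5′ UTR translation passed an FDR of 0.1 in 18.1% of the 5175 genes, in 937 upward and in 2 downward, a count that ran from 38 without Denr shRNA2 replicate 2 to 1773 without Gfp shRNA replicate 2. Of the paralogues 0 of 4 passed in limma, and 1, Cdk17, had an unadjusted p under 0.05. Cdk17 was higher by 0.38 ± 0.17 (SE, 95% interval 0.01 to 0.75, adjusted p = 0.142), near the median change of 0.33 over all genes tested. Cdk18 differed by 0.17 ± 0.19 (adjusted p = 0.497), Cdk16 by 0.09 ± 0.18 (adjusted p = 0.712) and Cdk14 by -0.18 ± 0.21 (adjusted p = 0.522). Of these 4 changes, 3 were below the median of all genes and 1 above it. The interval of Cdk16 reached from -0.30 to 0.48 and held that median. Set against 5′ UTR RNA in place of CDS footprints, the Cdk16 change was -0.19 (adjusted p = 0.568).

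**Figure D5:**
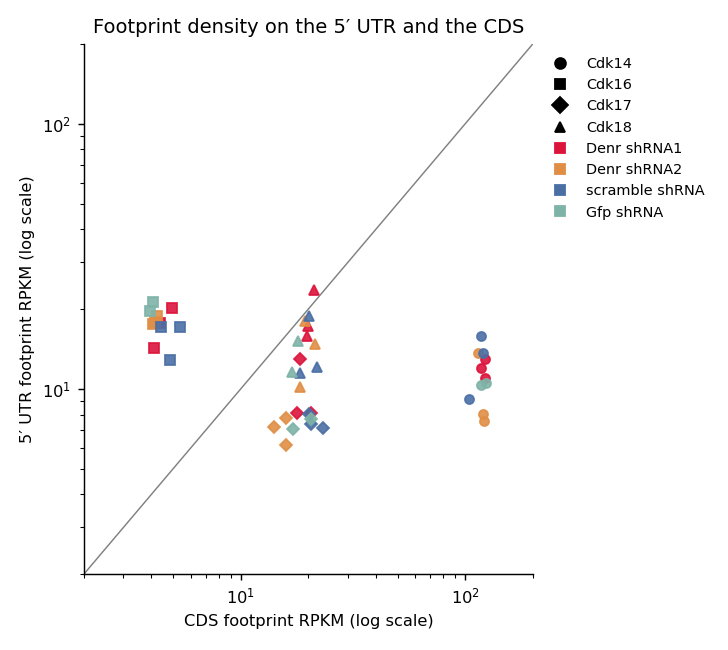
Footprint RPKM on the 5′ UTR against that on the CDS (both log scales) for the 4 paralogues, with shape for the gene and colour for the shRNA, and a grey line where both are equal. Cdk16 lies above the line in all 11 lysates, at 2.65 to 5.24 times its CDS density, and Cdk14 far below it.

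Genes that work with these kinases were followed through lists of other CDKs, cyclins with the CDK5 activators, CDK inhibitors, and LRP6 with Wnt signalling. Cyclin Y (Ccny), the partner of CDK14 and CDK16, had a mean RNA of 175 RPKM and a log2 TE change of 0.09 ± 0.12 (adjusted p = 0.999). Its relative 5′ UTR translation rose by 0.51 ± 0.15 (adjusted p = 0.0623). The related Ccnyl1 had a TE change of 0.18 ± 0.10 (adjusted p = 0.857) and an RNA change of -0.17 ± 0.06 (adjusted p = 0.198). Lrp6, the substrate of CDK14, changed by -0.05 ± 0.14 in TE (adjusted p = 1.00) and by 0.15 ± 0.11 in RNA (adjusted p = 0.539).

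Of 19 other CDKs 16 were measured, and 0 passed for TE or RNA in limma or limma-voom, with 2 (Cdk6 and Cdk9) and 1 (Cdk9) at an unadjusted p under 0.05. The median log2 TE change of the 16 was -0.02. CDS footprints of Cdk6, the D-type cyclin kinase of the G1 phase, fell by 0.37 on the log2 scale (SE 0.08, adjusted p = 0.022), the 1 call of the 16, where 10.0% of all genes were called. Its TE change of -0.51 ± 0.12 did not pass (adjusted p = 0.157), and those of Cdkl3 and Cdk9 were -0.35 and -0.24 (adjusted p = 0.767 and 0.547). Relative 5′ UTR translation rose for 2 of 12 covered CDKs, Cdk2 by 0.60 (adjusted p = 0.0491) and Cdk6 by 0.57 (adjusted p = 0.0842). That share is near the 18.1% called over all covered genes, and the median change of the 12 was 0.16 beside 0.33 over all.

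Of 27 cyclins and CDK5 activators 23 were measured, and 0 passed for TE, RNA or CDS footprints with either tool, with 1, 5 and 3 at an unadjusted p under 0.05. Their median log2 TE change was -0.06. The largest TE change was that of Ccnj, -0.32 ± 0.25 (adjusted p = 0.960), followed by Ccnl1 with -0.23 ± 0.08 (adjusted p = 0.556). Relative 5′ UTR translation rose for Ccny, as above, and for Ccnd3, a D-type cyclin, by 0.61 (adjusted p = 0.0957), 2 of 12 covered genes, near the 18.1% called over all, with a median of 0.37 beside 0.33. Of 8 CDK inhibitors 5 were measured and 0 passed for TE, RNA or CDS footprints with either tool, with 1, 0 and 0 at an unadjusted p under 0.05. Cdkn1a, which encodes p21, had the largest TE change of them, -0.30 ± 0.13 (adjusted p = 0.732). Cdkn1b, which encodes p27, was the 1 of 4 covered inhibitors whose relative 5′ UTR translation rose, by 0.46 (adjusted p = 0.0945), where 18.1% of all covered genes were called, and the median of the 4 was 0.28 beside 0.33.

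Of 38 genes of LRP6 and Wnt signalling 28 were measured. For TE 0 passed with either tool, with 2 at an unadjusted p under 0.05, Porcn at 0.48 ± 0.20 and Fzd3 at -0.41 ± 0.17 (adjusted p = 0.694 for both), and the median was -0.01 as over all genes. Porcn had a mean RNA of only 0.733 RPKM. For RNA 0 passed with either tool, with 5 at an unadjusted p under 0.05. The median change of the 28 in CDS footprints was 0.05 beside 0.01 over all. Of all 10516 genes 10.0% were called in either direction, 575 upward and 478 downward. Of the 28 genes, 0 were called downward, and CDS footprints rose for 4. These were the transcription factor Lef1 by 0.37 (adjusted p = 0.0553), the receptor Fzd2 by 0.27 (adjusted p = 0.0595), Wls, which carries Wnt ligands to the cell surface, by 0.27 (adjusted p = 0.0769), and the kinase Gsk3a by 0.18 (adjusted p = 0.0614). Limma-voom called 3 of them, without Lef1, which had a mean RNA of 1.18 RPKM. Relative 5′ UTR translation rose for 3 of 24 covered genes, Axin1 by 0.57, Dvl1 by 0.57 and Tcf7l1 by 0.53 (adjusted p = 0.0623, 0.0926 and 0.0997). This is a smaller share than the 18.1% called over all covered genes, and the median of the 24 was 0.22 beside 0.33.

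The genes whose TE profile was most like that of Cdk15 were found from the root mean square difference of log2 TE, each gene set relative to its own mean over the 5 controls, over the 11 lysates. Of 10147 genes with a mean CDS RPKM of at least 1 in both assays, the 5 nearest were Map2k6 at 0.34, Fbrsl1 at 0.34, Ankrd27 at 0.38, Armcx5 at 0.41 and Samd4b at 0.41, where the median gene was at 0.88. Their log2 changes in TE were -0.99, -1.01, -0.81, -0.69 and -1.03, which the measure of likeness fixes. Their changes in RNA were 0.88, 0.49, 0.43, 0.26 and 0.35, and those in CDS footprints were -0.11, -0.52, -0.38, -0.43 and -0.67, beside 1.10 and 0.02 for Cdk15. Map2k6, a kinase that activates p38, had the changes nearest to those of Cdk15 in both assays among these 5. The nearest paralogue, Cdk18, ranked 1535 with a difference of 0.79.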

How the data were processed

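RPF-seq and RNA-seq libraries of 11 NIH3T3 lysates were used. According to the paper and the labels, the authors aligned reads to GRCm38.p2 (Bowtie2 2.2.1, TopHat2 2.0.11), estimated isoforms (Cufflinks 2.2.1), placed footprints by their putative A-site, and counted a read that matched more than 1 region for the CDS first. They removed mitochondrial genes and genes with few reads. The authors deposited RPKM of CDS and 5′ UTR after upper-quartile normalization, for RPF-seq and RNA-seq separately.

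Whole reads were recovered from the RPKM steps, and 100% of 231352 CDS values came out whole within 0.0001 reads. Region lengths were chosen to make the counts whole, so this share is no separate check. For genes with a single protein-coding transcript, the recovered length equalled the annotated one in 93.2% for the CDS and 80.5% for the 5′ UTR. Tests ran over all 10516 genes on log2(RPKM + 0.1) with limma 3.58.1 (lmFit, eBayes with trend, R 4.3.3), Benjamini-Hochberg adjustment and an FDR of 0.1, and limma-voom on the recovered reads called 36 genes for TE where limma called 50. The limma-voom fit for TE had no term for the lysate. Scripts were tested on simulated data. Relative 5′ UTR translation required at least 20 reads in 9 RPF-seq libraries. Transcripts, AUG uORFs and sequences came from GENCODE vM21. Symbols matched for 10505 gene IDs. The members and gene lists were chosen with earlier results of these data known. Genes were named by rule: the members, Denr, Mcts1, Eif2d, Ccny, Ccnyl1 and Lrp6, the listed genes past the FDR (at most 6) or else the 3 with the largest change, and the 5 genes most like Cdk15. For the lists, only part of these genes is given. Alternatives were pseudocounts of 0.01 and 1, a mean RNA of at least 1 RPKM, median centring, the replicate block, each shRNA alone, each lysate left out, limma-voom and other 5′ UTR definitions. Python 3.11.15, pandas 2.3.3, scipy 1.17.1 and matplotlib 3.10.9 were used.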

Additional observations from a re-analysis of the deposited data

Results flagged for a closer look

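Among 38 sets of 5 or 6 lysates looked at for a member's RNA, CDS footprints, TE or relative 5′ UTR translation, 5 held a lysate that stood apart by the gap to its nearest neighbour, where chance gives about 1 in 20. Cdk15 RNA in Gfp shRNA replicate 2, at 1.13 RPKM from 21 reads, stood above the 4 other controls, and the same lysate had the highest Cdk15 footprints, 1.68 RPKM. Without it the log2 change under knockdown was 1.38 in RNA and -1.18 in TE. Cdk16 RNA was highest in Denr shRNA1 replicate 1, at 62.9 RPKM, among the knockdown lysates. Cdk16 CDS footprints were highest in Denr shRNA1 replicate 2, at 4.92 RPKM, and its log2 relative 5′ UTR translation was lowest in Denr shRNA1 replicate 3, at 1.76. Cdk18 RNA was lowest in Denr shRNA2 replicate 1, at 10.9 RPKM.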

How the results depend on the processing

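For Cdk15, the log2 changes under knockdown moved from -1.08 to -0.51 in TE and from 1.10 to 0.51 in RNA with a pseudocount of 1, while leaving out 1 lysate gave -1.24 to -0.96 and 0.96 to 1.38. A minimum of 1 RPKM in RNA removed the gene. Of 660 other values of the members under alternatives, 626 kept direction and side of the threshold, 8 passed it and 26 changed sign, the latter at adjusted p of 0.568 or more. With Denr shRNA1 alone, Cdk14 changed by 0.12 in TE and -0.069 in RNA. Against scramble shRNA alone Cdk18 footprints changed by -0.0076, with shRNA2 alone its relative 5′ UTR translation changed by -0.010, and over 5′ UTR RNA that of Cdk16 changed by -0.19. With a pseudocount of 1, Cdk15 TE differed by 0.046 between Gfp and scramble shRNA.

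Lysates left out in turn gave ranges across 0 for changes under knockdown of Cdk14 TE (-0.12 to 0.016) and Cdk16 relative 5′ UTR translation (-0.043 to 0.20). The same held between the Denr shRNAs for TE of Cdk15 (-0.20 to 0.11), Cdk16 (-0.20 to 0.063) and Cdk17 (-0.11 to 0.019) and RNA of Cdk16 (-0.099 to 0.085). Between the control shRNAs it held for TE of Cdk14 (-0.097 to 0.23), Cdk15 (-0.44 to 0.22) and Cdk17 (-0.048 to 0.072) and RNA of Cdk14 (-0.11 to 0.15).

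Counts of genes called moved more. Without 1 lysate they were 14 to 72 for TE, 139 to 734 for RNA, 484 to 1946 for CDS footprints and 38 to 1773 for relative 5′ UTR translation under knockdown, 0 to 1 (TE) and 61 to 267 (RNA) between Denr shRNAs, and 1 to 212 (RNA) between control shRNAs. With shRNA1 alone they were 1 for TE, 159 for RNA and 5 for relative 5′ UTR translation, and 9 for the latter with shRNA2 alone. Against scramble shRNA alone they were 10, 940, 2651 and 514. Relative 5′ UTR translation gave 131 with a 5′ UTR minimum of 1 RPKM and 4 over 5′ UTR RNA. The cause of these differences was not tested.

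Lysates of different shRNAs that share a number correlated over 0.1 in their deviations in 10 of 15 pairs for TE, 10 of 15 for RNA and 13 of 15 for CDS footprints. The mean correlation of the 15 pairs was 0.23, 0.33 and 0.18. Pairs of different number had -0.11, -0.16 and -0.09. Deviations were taken from the mean of each shRNA, so these negative values follow from the positive ones and are no separate comparison. The centring also makes pairs and lysates depend on each other, so the counts carry no test. In turn, 9, 7 and 9 of the 11 lysates correlated best with a lysate of their own number. Lysates of the same number thus shared part of their deviations, though not in every pair. The labels do not say that the numbers pair the samples, so the main fits leave the number out and the block is an alternative. With the replicate block, calls numbered 58 for TE, 1003 for RNA, 1940 for CDS footprints and 2418 for relative 5′ UTR translation under knockdown, 965 for RNA between Denr shRNAs and 157 between control shRNAs. Under this block Cdk15 changed by -1.15 in TE, its TE difference between control shRNAs was 0.054, and 4 values passed the threshold, those of Cdk17 footprints (adjusted p = 0.0783), Cdk17 relative 5′ UTR translation (0.0473) and RNA of Cdk14 (0.0398) and Cdk17 (0.0827) between Denr shRNAs.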
